A study of Mus musculus with 20 samples.

Results

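The liver expression of 9 genes of major histocompatibility complex (MHC) antigen presentation was measured in 20 mice. The genes were H2-Aa, H2-Ab1, H2-Eb1, Cd74 and Ciita of the class II pathway, and B2m, H2-K1, H2-D1 and Tap1 of the class I pathway. They were picked by name, as the rows of the deposited gene count table whose Ensembl identifiers carry those symbols in GENCODE release M21 (the rule uses names alone). All 9 were found among the 21780 genes of the table, and all 9 were among the 15522 genes with at least 10 counts over the 20 libraries that were tested.

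The mice were male C57BL/6J animals, 8 weeks old when a high-fat diet (HFD) with 42% of its calories from fat began. The diet was fed for 12 weeks to every mouse, the controls included. At 10 weeks of age each mouse received a single oral gavage. The HFD control group received corn oil, the HFD + Aroclor group Aroclor 1260 at 20 mg/kg, the HFD + PCB 126 group PCB 126 at 20 µg/kg, and the HFD + Aroclor + PCB 126 group both, with 5 mice in each group. Aroclor 1260 is a commercial mixture of mostly non-dioxin-like polychlorinated biphenyls (PCBs), and PCB 126 is a dioxin-like congener that activates the aryl hydrocarbon receptor (AHR). Because the doses differed, the single exposures are given side by side and were not tested against each other. Exposure lasted 10 weeks by the study's methods and 12 weeks by the sample labels. Each library was made from the RNA of whole liver, so every value is a mixture of hepatocytes and the other cells of the organ.

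MHC class I molecules show peptides from inside the cell to CD8 T cells. Their heavy chains, here H2-K1 and H2-D1, fold with beta-2 microglobulin, the product of B2m, while the transporter formed by Tap1 and Tap2 brings peptides cut by the proteasome into the endoplasmic reticulum. Class I genes are active in nearly all nucleated cells, hepatocytes included, and are raised by interferons and NF-kB. MHC class II molecules show peptides from ingested material to CD4 T cells and are made mainly by dendritic cells, macrophages and B cells, in the liver also by Kupffer cells and sinusoidal endothelium. H2-Aa and H2-Ab1 encode the alpha and beta chains of I-A, and H2-Eb1 encodes the beta chain of I-E. Cd74 is the invariant chain that escorts class II molecules to the endosome, and Ciita is the coactivator that switches the class II genes on. C57BL/6 mice do not make the I-E alpha chain, so H2-Eb1 is transcribed in them without a partner for the cell surface.

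Short elements searched for in the promoters below include the X2 box bound by CREB and ATF factors and the Y box bound by NF-Y. The promoters are printed here because they show which members carry the exact letters searched for. RefSeq promoter windows on GRCm38.p6 were searched for 6 of the 9 members (B2m, H2-Aa, H2-D1, H2-Eb1, H2-K1 and Tap1). The promoters of H2-Ab1, Ciita and Cd74 were not examined. Each line runs 5′ to 3′ from 180 bases before the RefSeq start to 30 bases after it. Capitals mark letters that match a searched element on either strand: the Y box core CCAAT, the X2 box core TGACG, the interferon-stimulated response element GAAANNGAAA, an NF-kB site GGGGATTCC, the TATA box TATAAA and the AHR core GCGTG.
H2-Aa (chr17:34287794-34288003, minus strand): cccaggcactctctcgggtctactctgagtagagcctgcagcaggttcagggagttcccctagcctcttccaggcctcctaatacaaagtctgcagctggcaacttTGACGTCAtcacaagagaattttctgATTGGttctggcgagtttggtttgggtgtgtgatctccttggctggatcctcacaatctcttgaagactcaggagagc
H2-Eb1 (chr17:34305687-34305896, plus strand): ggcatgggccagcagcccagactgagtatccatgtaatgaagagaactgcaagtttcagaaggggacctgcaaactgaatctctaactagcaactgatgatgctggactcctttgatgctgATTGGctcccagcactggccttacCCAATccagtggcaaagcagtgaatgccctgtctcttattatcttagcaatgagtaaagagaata
B2m (chr2:122147507-122147716, plus strand): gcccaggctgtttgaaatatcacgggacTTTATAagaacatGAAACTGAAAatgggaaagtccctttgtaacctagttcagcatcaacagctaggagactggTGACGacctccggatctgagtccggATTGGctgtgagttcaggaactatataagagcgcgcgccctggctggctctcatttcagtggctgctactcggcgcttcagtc
H2-K1 (chr17:34000318-34000527, minus strand): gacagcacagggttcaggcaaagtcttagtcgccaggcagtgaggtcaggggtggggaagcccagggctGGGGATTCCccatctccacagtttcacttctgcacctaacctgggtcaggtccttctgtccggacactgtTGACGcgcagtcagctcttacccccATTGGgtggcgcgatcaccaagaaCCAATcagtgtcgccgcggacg
H2-D1 (chr17:35262914-35263123, plus strand): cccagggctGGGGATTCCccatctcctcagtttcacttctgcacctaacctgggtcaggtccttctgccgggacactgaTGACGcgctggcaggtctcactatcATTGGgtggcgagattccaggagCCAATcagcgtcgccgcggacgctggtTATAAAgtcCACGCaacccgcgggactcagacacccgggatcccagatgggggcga
Tap1 (chr17:34187376-34187585, plus strand): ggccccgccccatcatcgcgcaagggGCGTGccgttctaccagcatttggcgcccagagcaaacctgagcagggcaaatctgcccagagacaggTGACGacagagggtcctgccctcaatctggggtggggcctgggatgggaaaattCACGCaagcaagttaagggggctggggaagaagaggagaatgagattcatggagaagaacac

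Within the full windows of 250 bases before and 50 bases after the start, each of the 6 promoters held a Y box core, that of Tap1 lying at -222, outside the printed stretch. Over the 32544 RefSeq promoters of the same length, 37.4% held these letters. An X2 core was found in all but H2-Eb1, and in 20.9% of all promoters. In H2-Aa the X2 core reads on both strands over the same bases, TGACGTCA. In H2-Aa, B2m, H2-K1 and H2-D1 an X2 core lay shortly before a Y box, at -74 and -48 in H2-Aa, -78 and -53 in B2m, -41 and -16 in H2-K1, and -101 and -76 in H2-D1. Counted from another RefSeq start of H2-K1, not printed here, its 2 cores lay at -55 and -30. B2m alone among the 6 held the exact letters searched for the interferon-stimulated response element, GAAANNGAAA, at -139, which occurred in 3.4% of all promoters. Looser forms of this element were not searched in any of the 6. H2-K1 and H2-D1 held the NF-kB site, present in 0.3% of all promoters, and the longest run of identical bases between their printed promoters was 40 bases. The AHR core was found in H2-D1, H2-K1 and Tap1, and in 32.6% of all promoters. The TATA letters were present in B2m (minus strand), H2-D1 and H2-K1, and in 13.6% of all promoters. In H2-K1 the TATA letters began at base 36 after the start and the AHR core at base 45, both outside the printed stretch. A match of letters is a description of the sequence and does not show that a factor was bound. The lack of a match does not show that an element is absent, since only exact letters were searched.

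Of the 9 genes, 6 lie on chromosome 17 of GRCm38: H2-K1 (33996017 to 34000347, minus strand), Tap1 (34187553 to 34197225), H2-Ab1 (34257689 to 34269419), H2-Aa (34282744 to 34287823, minus strand), H2-Eb1 (34305867 to 34316674) and H2-D1 (35262730 to 35267499). Ciita lies on chromosome 16 (10480059 to 10528418), B2m on chromosome 2 (122147686 to 122153083) and Cd74 on chromosome 18 (60803848 to 60812652). No exonic stretch of read length was shared with another gene in H2-Aa, H2-Ab1, H2-Eb1, Cd74 or B2m. Of H2-K1, 3.1% of such stretches were found elsewhere, and of H2-D1 5.56%, in genes that included H2-Q10 and H2-Q7 for H2-K1, and H2-Q1, H2-Q7 and H2-T23 for H2-D1. How the counting treated reads with several matches and whether it used strand is not given in the sources used here. Tap1 overlaps Psmb9, B2m overlaps Patl2, and Ciita overlaps Dexi, each on the opposite strand, so counts at these overlaps are uncertain.

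Library totals ranged from 21836506 to 36854887 gene counts, and the rarest member, Ciita, had 18 to 126 counts in a library, while B2m had 40260 to 82088. The libraries differed in how a gene's level depended on its GC content. Levels are given as CPM, the gene's count scaled to the library's TMM-normalised total. The slope of log2 CPM per 10 percentage points of GC, relative to the mean of all libraries, averaged 0.234 ± 0.131 (SD, n = 5) for HFD control. It averaged -8.14e-04 ± 0.0734 with Aroclor, 0.103 ± 0.188 with PCB 126 and -0.337 ± 0.163 with both. The slopes of HFD control (0.0853 to 0.423) and of the combined exposure (-0.543 to -0.121) did not overlap. The GC content of the members' transcripts ran from 41.2% in B2m and 48.9% in H2-Aa to 57.7% in H2-Ab1, against a median of 50.2% over all genes tested. Each change below is therefore given with its value from a fit in which every library's smooth GC trend was removed, called GC-corrected. Since library numbers in the labels run through the groups in order, any effect of library order cannot be told apart from that of exposure.

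Per kilobase of exon, B2m was the most abundant member, at 2386 ± 193 CPM per kilobase (mean ± SD, n = 20 mice). H2-K1 followed at 473 ± 81.9 and H2-D1 at 221 ± 40.0. Of the class II genes, Cd74 was highest at 60.1 ± 27.1, above H2-Eb1 at 21.3 ± 9.95, H2-Aa at 15.3 ± 7.25 and H2-Ab1 at 14.5 ± 7.05. Tap1 stood at 6.06 ± 1.5 and Ciita at 0.192 ± 0.0832. Each gene was above the next in all 20 mice, except that H2-Aa was above H2-Ab1 in 14 of 20, so the levels of these paired chains were not separated.

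The plot of CPM by mouse shows every value of the 9 genes, which are taken in turn below.

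**Figure D1:**
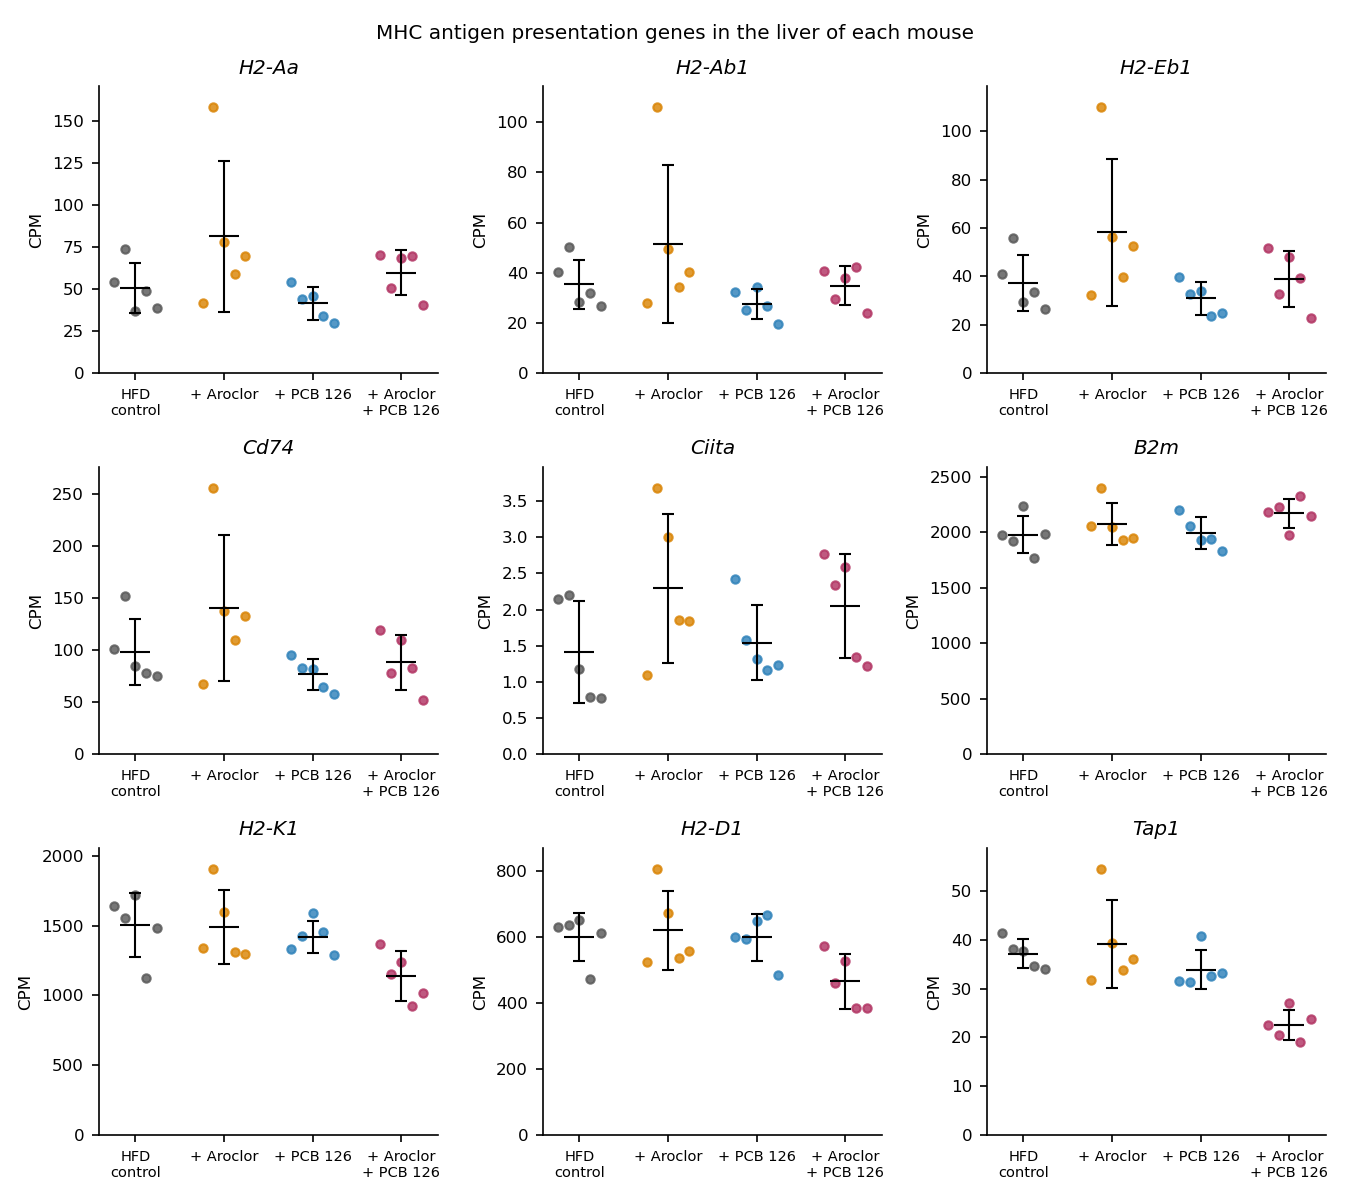
CPM of each MHC gene in every mouse (points, 5 per group, replicates 1 to 5 from left to right), with the group mean (bar) and SD (error bar), each panel on its own axis from 0. Tap1 in the combined exposure (19.1 to 27.0 CPM) lies below all other mice, while replicate 2 of HFD + Aroclor is the highest of the 20 mice for all 9 genes.

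Ciita, the class II coactivator, was present at 2.14, 2.20, 1.18, 0.790 and 0.774 CPM in the 5 HFD control mice. It stood at 1.10, 3.68, 3.00, 1.86 and 1.84 CPM with Aroclor, at 2.42, 1.58, 1.32, 1.16 and 1.23 CPM with PCB 126, and at 2.77, 2.34, 2.59, 1.35 and 1.22 CPM with both. The 4 groups overlapped, and no comparison of Ciita passed the test (edgeR quasi-likelihood, two-sided, Benjamini-Hochberg over the 15522 genes, adjusted p under 0.05). Its log2 fold change against HFD control was 0.67 ± 0.35 (SE, adjusted p = 0.321) with Aroclor and 0.51 (adjusted p = 0.298) with both. GC-corrected, the latter was 0.90 (adjusted p = 0.123), and with the replicate number as a block as well it was 0.96 (adjusted p = 0.0423), the setting of those tried in which Ciita passed.

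H2-Aa, the I-A alpha chain, stood at 54.1, 73.5, 37.1, 48.8 and 38.7 CPM in HFD control. With Aroclor it stood at 41.8, 158, 77.6, 59.1 and 69.7 CPM, with PCB 126 at 54.4, 44.3, 45.5, 33.7 and 30.0 CPM, and with both at 70, 50.4, 68.6, 69.4 and 40.3 CPM. All 4 groups overlapped, with the highest value in replicate 2 of HFD + Aroclor and the lowest in the PCB 126 group. H2-Ab1, the I-A beta chain, stood at 40.1, 50.2, 28.2, 31.8 and 26.8 CPM in the control mice, and at 27.8, 106, 49.4, 34.3 and 40.4 CPM with Aroclor. It stood at 32.4, 25.1, 34.4, 26.8 and 19.4 CPM with PCB 126 and at 40.7, 29.6, 37.7, 42.1 and 24 CPM with both. The same mouse was the highest, and the groups again overlapped.

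H2-Eb1, the I-E beta chain, stood at 41.1, 55.9, 29.3, 33.4 and 26.7 CPM in the control mice, and at 32.3, 110, 56.4, 39.6 and 52.7 CPM with Aroclor. It stood at 39.8, 32.5, 33.8, 23.5 and 24.9 CPM with PCB 126 and at 51.8, 32.5, 48.0, 39.2 and 22.8 CPM with both. The groups overlapped, although H2-Eb1 has no partner chain in this strain and followed the I-A genes from mouse to mouse. Cd74, the invariant chain, stood at 101, 152, 84.4, 77.7 and 75 CPM in the control mice and at 67.3, 256, 138, 110 and 133 CPM with Aroclor. It stood at 95.2, 83.3, 82.2, 64.1 and 58.2 CPM with PCB 126 and at 119, 78.1, 110, 82.6 and 51.9 CPM with both. Over all 20 mice the coefficient of variation of the class II members lay between 43.4% (Ciita) and 48.5% (H2-Ab1), against 8.09% for B2m.

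With Aroclor alone, the 5 class II members had positive log2 fold changes against HFD control, from 0.52 ± 0.28 (SE) for Cd74 to 0.69 ± 0.28 for H2-Aa, but none passed the test. In this comparison 0 of the 15522 genes passed (0%), with 2677 at an unadjusted p under 0.05 and 143 called by DESeq2, and DESeq2 called 0 of the 9 members. The median of the 5 was 0.64, beside -0.013 over all genes tested, and H2-Aa (adjusted p = 0.238) and H2-Eb1 (adjusted p = 0.263) were under 0.05 before adjustment. H2-Ab1 differed by 0.54 (adjusted p = 0.320) and Cd74 by 0.52 (adjusted p = 0.330). The GC-corrected values were 0.67 to 0.84, with all 5 under 0.05 before adjustment, beside 1824 of the 15522 genes, and none after it. Without replicate 2 of HFD + Aroclor the log2 fold changes were 0.30 for H2-Aa, 0.10 for H2-Ab1, 0.28 for H2-Eb1, 0.19 for Cd74 and 0.44 for Ciita, with adjusted p from 0.500 to 0.831. In whole liver, more cells of a type and more RNA per cell cannot be told apart.

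Summed markers of several cell types were also the highest of the group in that mouse. In replicate 2 of HFD + Aroclor the summed level of the 12 Kupffer cell markers was 746 CPM, against 373 to 746 over the group and 296 to 654 in HFD control. The 8 markers of monocytes and recruited macrophages summed to 155 CPM, the highest of the group (87.8 to 155) and above HFD control (67.6 to 125). This sum was mostly Lyz2, at a mean of 83.2 CPM, with Ccr2 next at 4.23 CPM. The 10 dendritic cell markers summed to 27.9 CPM (18.4 to 27.9 in the group, 13.8 to 27.7 in HFD control), the 10 T and NK cell markers to 11.1 CPM (4.27 to 11.1, and 4.75 to 6.76 in HFD control), and the 10 measured of 12 B cell markers to 13.9 CPM (7.46 to 13.9, and 3.51 to 14.8 in HFD control). No tested marker of these lists was at 0 over a whole group. With Aroclor 0 markers of these 5 lists passed by edgeR, 3 were at an unadjusted p under 0.05, and DESeq2 called 1, Ccr2. Outside these lists, the markers of sinusoidal endothelium summed to 290 CPM in that mouse (156 to 290 in the group, 122 to 266 in HFD control). Its sums for stellate cells, cholangiocytes and hepatocytes were not the highest of the group. The part of any of these cells in the class II values was not tested.

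With PCB 126 alone, none of the 5 class II genes passed the test, in a comparison in which 18 genes (0.116%) did, DESeq2 called 310, and DESeq2 called 0 of the 9 members. H2-Aa differed from HFD control by -0.28, H2-Ab1 by -0.36, H2-Eb1 by -0.27, Cd74 by -0.35 and Ciita by 0.10 on the log2 scale. Their median was -0.28, beside -0.018 over all genes tested, and none was under 0.05 before adjustment. GC-corrected, the median of the 5 was -0.20, beside 0.025 over all genes, and none was under 0.05 before adjustment. The summed marker levels were 364 ± 124 CPM for Kupffer cells (429 ± 138 in HFD control) and 68.7 ± 29.6 CPM for monocytes and recruited macrophages (88.3 ± 22 in HFD control), the latter sum being mostly Lyz2. Their part in the class II values was not tested.

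With both exposures, the class II members also passed no test against HFD control, in a comparison in which 32.8% of all genes did, 15.8% higher and 17.0% lower. The mean of H2-Aa was 59.7 ± 13.6 CPM (SD, n = 5) against 50.4 ± 14.7 CPM in HFD control, that of H2-Ab1 34.8 ± 7.76 against 35.4 ± 9.73, that of H2-Eb1 38.9 ± 11.7 against 37.3 ± 11.7, and that of Cd74 88.4 ± 26.9 against 97.9 ± 31.8. The log2 fold changes were 0.24 (adjusted p = 0.549), -0.026 (0.958), 0.058 (0.905) and -0.15 (0.734) in that order. GC-corrected they were 0.14, 0.48, 0.31 and 0.24, so that H2-Ab1 and Cd74 changed sign. In the uncorrected fit none of the 5 was at an unadjusted p under 0.05, beside 6581 of all 15522 genes. In the GC-corrected fit 1 (Ciita) was, beside 3429 of all genes, and DESeq2 called 0 of the 5. The 95% intervals of the uncorrected changes are drawn in the plot of changes against HFD control.

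**Figure D2:**
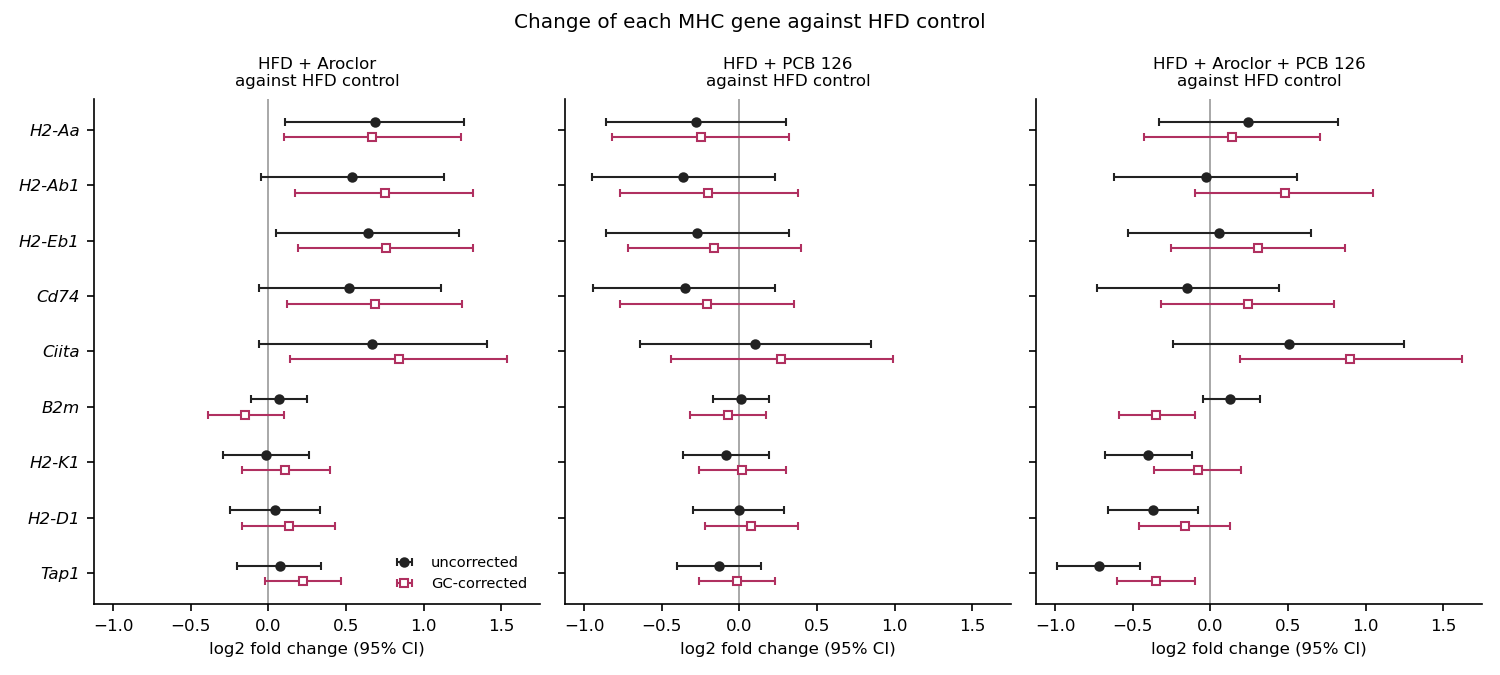
Log2 fold change of each gene against HFD control with its 95% confidence interval, from the uncorrected fit (filled circles) and the GC-corrected fit (open squares), in 3 panels for the single and combined exposures. In the combined exposure Tap1 was at -0.72 before and -0.35 after correction, H2-K1 at -0.40 and -0.081, H2-D1 at -0.37 and -0.16, and B2m moved from 0.13 to -0.35.

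Of 22 other genes of the class II pathway, 21 were tested. With both exposures 2 rose, 2 fell and 17 did not pass the test, with a median log2 fold change of 0.11 beside -9.60e-04 over all genes, of which 32.8% passed. March1, a ubiquitin ligase that removes class II molecules from the cell surface, rose from 1.57 to 3.23 CPM (log2 fold change 1.03, adjusted p = 0.0102), with every mouse above every control. How common such a separation upwards was over all genes was not counted. Creb1, which binds the X2 box, rose from 14.8 to 20 CPM (0.44, adjusted p = 0.0416). Rfxank and Rfxap, subunits of the RFX complex on the X box of class II promoters, fell. Rfxank went from 13.2 to 8.06 CPM (-0.71, adjusted p = 0.00104) with every mouse below every control, as in 8.14% of all genes. Rfxap went from 8.47 to 6.63 CPM (-0.35, adjusted p = 0.0335). GC-corrected, March1 was at 0.58 (adjusted p = 0.221), Creb1 at 0.052, and Rfxap at -0.15 (adjusted p = 0.494), so that these 3 calls were lost. Rfxank was still past the threshold at -0.40 (adjusted p = 0.0388), and Nfyb, an NF-Y subunit at -0.016 before correction, passed at -0.33 (adjusted p = 0.0468). The most abundant of the list were the lysosomal proteases Ctsl, at 728 CPM against 787 CPM in HFD control, and Ctsh, at 303 against 290 CPM, and neither passed. With Aroclor alone 0 of 21 passed, with 6 at an unadjusted p under 0.05, 0 by DESeq2 and a median of 0.11. With PCB 126 alone 0 of 21 passed, with 3 at an unadjusted p under 0.05, 1 by DESeq2 (Nfya, an NF-Y subunit) and a median of -0.19.

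Tap1, the class I peptide transporter subunit, fell with the combined exposure, and was the 1 member whose values there did not overlap those of HFD control. It stood at 41.4, 38.1, 37.7, 34.7 and 34.0 CPM in HFD control. With Aroclor it stood at 31.7, 54.5, 39.4, 33.9 and 36.1 CPM, with PCB 126 at 31.5, 31.3, 40.9, 32.6 and 33.3 CPM, and with both at 22.6, 20.5, 27.0, 19.1 and 23.7 CPM. Every mouse of the combined exposure was below all 15 others, whose lowest value was 31.3 CPM. Of all genes tested, 8.14% had every value of the combined exposure below every HFD control value, and 1.20% had every value below all other 15 mice.

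The log2 fold change of Tap1 in the combined exposure against HFD control was -0.72 ± 0.13 (SE, 95% interval -0.99 to -0.45, edgeR adjusted p = 0.00105). It stayed past the threshold when any 1 of the 10 mice was left out, at -0.81 to -0.68. The GC content of Tap1 is 55.8%, and GC-corrected its change was -0.35 (adjusted p = 0.0863). On the GC-corrected log2 CPM scale the combined exposure (4.55 to 4.87) was still below HFD control (4.92 to 5.20) and below the other 15 mice (4.92 to 5.79). With each library's GC slope as a covariate instead, the change was -0.26 (adjusted p = 0.720).

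H2-K1, a class I heavy chain, fell with both exposures. It stood at 1642, 1553, 1721, 1127 and 1484 CPM in the control mice, and at 1372, 1153, 1242, 921 and 1019 CPM in the combined exposure, and the groups overlapped through the fourth control mouse. With Aroclor it stood at 1342, 1904, 1601, 1313 and 1294 CPM, and with PCB 126 at 1331, 1427, 1589, 1457 and 1289 CPM. The change with both exposures was -0.40 ± 0.13 (SE, 95% interval -0.68 to -0.12, adjusted p = 0.0265). It was past the threshold in 6 of the 10 fits that left out a mouse, and was lost without replicate 1 or 3 of HFD control (adjusted p = 0.0631 and 0.0680) or replicate 4 or 5 of the combined exposure (0.0554 and 0.0708). GC-corrected the change of H2-K1, whose GC content is 55.3%, was -0.081 (adjusted p = 0.794).

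H2-D1, the other heavy chain, had a similar fall. It stood at 629, 635, 652, 473 and 612 CPM in the control mice, and at 571, 459, 526, 383 and 385 CPM in the combined exposure, and these groups overlapped. With Aroclor it stood at 524, 804, 673, 536 and 557 CPM, and with PCB 126 at 599, 594, 647, 667 and 483 CPM. The change with both exposures was -0.37 ± 0.14 (SE, 95% interval -0.66 to -0.078, adjusted p = 0.0476), just inside the threshold. It was past the threshold in 3 of the 10 fits that left out a mouse, and was lost without replicate 1, 2, 3 or 5 of HFD control (adjusted p = 0.0897, 0.0800, 0.0959 and 0.0760) or replicate 2, 4 or 5 of the combined exposure (0.0795, 0.0895 and 0.129). GC-corrected it was -0.16 (adjusted p = 0.553).

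B2m, the invariant light chain, did not pass in any of the 6 comparisons. It stood at 1976, 1924, 2236, 1766 and 1982 CPM in HFD control, at 2051, 2395, 2044, 1930 and 1948 CPM with Aroclor, at 2200, 2057, 1927, 1934 and 1830 CPM with PCB 126, and at 2177, 2230, 1970, 2324 and 2146 CPM with both. All 4 groups overlapped. Its change with both exposures was 0.13 (95% interval -0.048 to 0.32, adjusted p = 0.258), and GC-corrected it was -0.35 (adjusted p = 0.0855). B2m had the lowest GC content of the members, and its sign in the combined exposure thus depended on the correction.

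With the combined exposure, therefore, 3 of the 9 members fell and none rose, beside the 17.0% lower and 15.8% higher of all genes. GC-corrected, 0 of the 9 passed, and 4.30% of all genes did. At an unadjusted p under 0.05 in that fit were 3 of the 9 (Ciita, B2m and Tap1), beside 3429 of all 15522 genes. With either single exposure 0 of the 4 class I members passed, 0 were at an unadjusted p under 0.05, and DESeq2 called 0. With Aroclor their log2 fold changes were 0.069 for B2m, -0.014 for H2-K1, 0.044 for H2-D1 and 0.073 for Tap1, and with PCB 126 they were 0.0094, -0.086, -0.0050 and -0.13 in the same order.

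The combined exposure was also compared with each single exposure, and these comparisons share the combined mice. Against PCB 126 alone, in which 16.7% of all genes passed, Tap1 was lower at -0.59 (adjusted p = 0.0144), and the call was lost without replicate 3 of HFD + PCB 126 (-0.51, adjusted p = 0.0549). H2-K1 was at -0.31 (adjusted p = 0.1) and H2-D1 at -0.36 (adjusted p = 0.0736), and H2-D1 was called by DESeq2 (0.0421) and with the replicate block (0.0448). Against Aroclor alone, in which 0.412% passed, Tap1 was lower at -0.79 (adjusted p = 0.0269), a call kept in 3 of the 10 fits that left out a mouse (adjusted p from 0.00737 to 0.124) and lost without replicate 2, 3, 4 or 5 of HFD + Aroclor (0.0537, 0.0561, 0.0722 and 0.104) or replicate 2, 4 or 5 of the combined exposure (0.0999, 0.124 and 0.108). There H2-K1 was at -0.39 (adjusted p = 0.109) and H2-D1 at -0.41 (adjusted p = 0.103), and DESeq2 called both, at 0.0470 and 0.0451. GC-corrected, the change of Tap1 was -0.34 (adjusted p = 0.145) against PCB 126 and -0.57 (adjusted p = 0.163) against Aroclor. In either comparison 0 of the 5 class II members passed by edgeR or DESeq2, with 1 (Cd74, -0.67, adjusted p = 0.164) at an unadjusted p under 0.05 against Aroclor.

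An interaction term tested whether the log2 change with both PCB preparations departed from the added changes with each. It was past the threshold for 0 of the 15522 genes (0%) by edgeR, with 1846 at an unadjusted p under 0.05 and 1 called by DESeq2. Among the 9 members Tap1 was under 0.05 before adjustment, at -0.66 (edgeR adjusted p = 0.284), and GC-corrected at -0.56 (adjusted p = 0.299). DESeq2 called 0 of the 9, and for the other 8 members the adjusted p ran from 0.421 to 0.908.

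Of 25 other genes of the class I pathway, in the combined exposure 7 fell, 1 rose and 17 did not pass, with a median log2 fold change of -0.23 beside -9.60e-04 over all genes, and DESeq2 called 8. Of all genes 17.0% were lower and 15.8% higher, 32.8% in all, so the share of this list that passed was near the background. Tap2, the other subunit of the transporter, fell from 16.7 to 9.86 CPM (-0.76, adjusted p = 0.00275) with every mouse below every control, as in 8.14% of all genes. The immunoproteasome subunits Psmb8 (39.1 to 24.9 CPM, adjusted p = 0.0161) and Psmb10 (17.8 to 9.57 CPM, adjusted p = 0.00839) fell, while Psmb9 was at 17.8 against 26.2 CPM (adjusted p = 0.0786). The nonclassical class I genes H2-Q10, a secreted liver product (2109 to 1445 CPM, adjusted p = 0.0136), H2-Q7 (21.5 to 13.7 CPM, adjusted p = 0.00565) and H2-T23 (148 to 100 CPM, adjusted p = 0.00719) fell as well, and share sequence with each other and with the heavy chains. Rela, the p65 subunit of NF-kB, fell from 40.8 to 21.9 CPM (-0.90, adjusted p = 5.05e-04). Erap1, the peptide-trimming aminopeptidase of the endoplasmic reticulum, rose from 82.7 to 140 CPM (0.76, adjusted p = 0.00170). The chaperone Calr, among the most abundant of the list, was at 500 against 645 CPM (adjusted p = 0.137), and Nlrc5, the class I coactivator, at 25.5 against 30.0 CPM (adjusted p = 0.308).

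GC-corrected, 0 of these 25 genes passed, with a median of -0.16 and with 6 at an unadjusted p under 0.05, beside 3429 of all 15522 genes. Rela was at -0.37 (adjusted p = 0.0542) and Erap1 at 0.31 (adjusted p = 0.163). Over the 9 members and the 46 other pathway genes together, the direction of the uncorrected calls followed GC content. Of 9 genes under 45% GC, 3 rose and none fell, and of 14 genes at 55% or more, 7 fell and none rose. The median log2 fold change went from 0.43 in the former to -0.48 in the latter, and GC-corrected from 0.071 to -0.16.

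**Figure D3:**
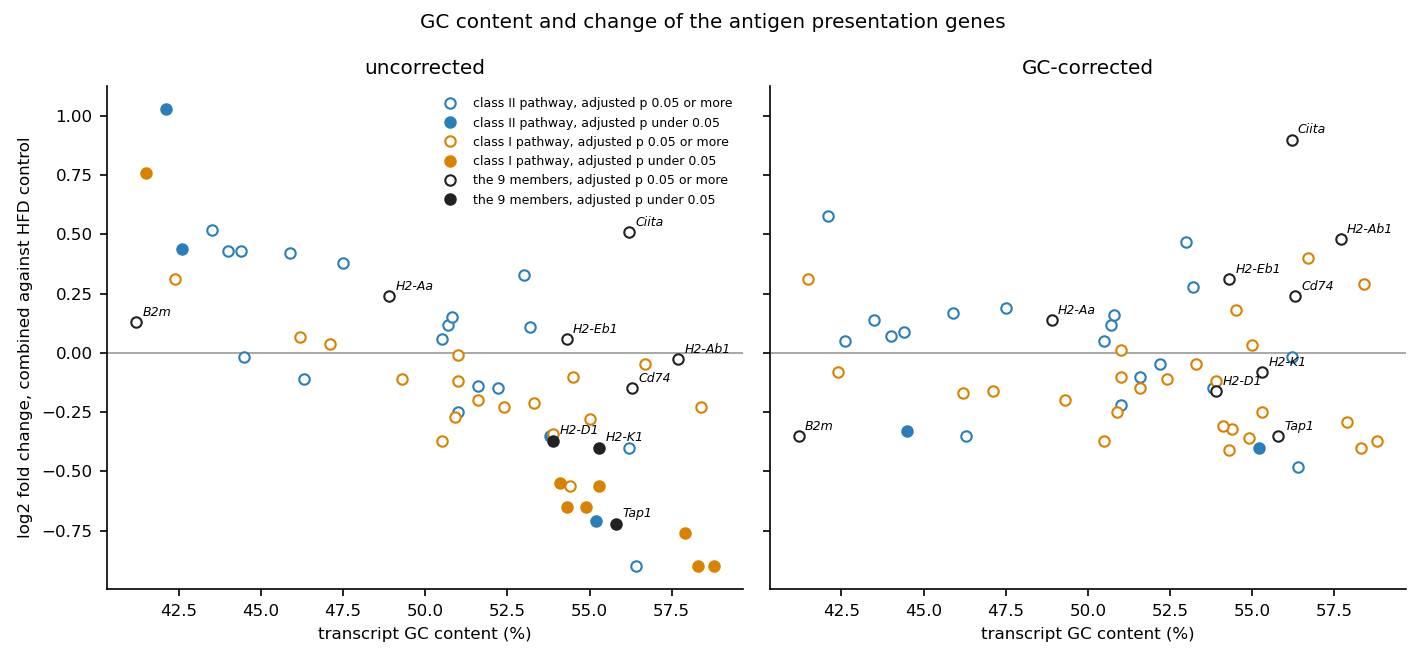
Log2 fold change in the combined exposure against HFD control by transcript GC content, for the 9 members (black, named), the other class II pathway genes (blue) and the other class I pathway genes (orange), uncorrected on the left and GC-corrected on the right, with genes of adjusted p under 0.05 filled. Before correction the genes that rose lie under 45% GC and those that fell at 50% GC or more; after it none of the members is filled.

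With either single exposure none of the 25 class I genes passed, with medians of 0.027 (Aroclor, 2 at an unadjusted p under 0.05) and 0.0037 (PCB 126, 2 at an unadjusted p under 0.05), and DESeq2 called 0 with either. Interferon gamma signalling, which induces both pathways, was read from 15 genes. With Aroclor all 15 had a positive change, with a median of 0.36, and 9 were at an unadjusted p under 0.05, but 0 passed after adjustment and DESeq2 called 1 (Gbp7). GC-corrected, the median with Aroclor was 0.27 and 0 passed, with 4 at an unadjusted p under 0.05, beside 1824 of all 15522 genes. With PCB 126 the median was -0.036, and 0 passed, with 1 at an unadjusted p under 0.05 and 1 by DESeq2 (Cxcl10, a T cell chemokine). With Aroclor Gbp7, a guanylate-binding protein, was at 20.8 against 11.3 CPM (adjusted p = 0.184) and Cxcl9, a T cell chemokine, at 25.4 against 13.1 CPM (adjusted p = 0.216). The summed level of the 15 genes was 508, 855, 531, 536 and 495 CPM in the 5 mice of HFD + Aroclor, the highest being replicate 2. In HFD control it was 396 to 506 CPM. With both exposures 2 of 15 rose, Jak2, a kinase of the receptor (14.3 to 21.3 CPM, adjusted p = 0.00629), and Gbp7 (11.3 to 21.1 CPM, adjusted p = 0.00760), with a median over the list of 0.11, beside 15.8% higher of all genes. Jak1, another kinase of the receptor, was at 108 against 90.3 CPM (adjusted p = 0.0724). GC-corrected, none of the 15 passed, with 2 at an unadjusted p under 0.05, beside 3429 of all 15522 genes.

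Cell type markers in the combined exposure moved in mixed directions beside these results, and their counts stand beside 32.8% of all genes called (15.8% higher, 17.0% lower). Ccr2, the receptor of recruited monocytes, rose from 2.26 to 6.20 CPM (1.44, adjusted p = 0.00391) and was 1 of 8 markers of its list to pass. Adgre1, which encodes F4/80, rose from 11.4 to 20 CPM (0.82, adjusted p = 0.0248), 1 of 12 Kupffer cell markers. Of these 12 only 4 had a positive change, and the list median was -0.15 (0.054 GC-corrected). Cr2 rose from 0.208 to 0.507 CPM (adjusted p = 0.0328), 1 of 10 B cell markers tested. Of these 10 only 4 had a positive change, and the list median was -0.058 (0.10 GC-corrected). For dendritic cells 0 of 10 markers passed, and for T and NK cells 0 of 10 (0 and 3 at an unadjusted p under 0.05, and 0 by DESeq2). Stab2, of sinusoidal endothelium, fell from 43.2 to 30.6 CPM (adjusted p = 0.00770), 1 of 8. Of 8 stellate cell markers 4 rose and 2 fell, among them Lrat, which rose, and Des, which fell. Of 8 hepatocyte markers 3 fell, Apoa1 (7324 to 4258 CPM), Ttr (6561 to 4037 CPM) and Serpina1c (3743 to 2721 CPM), while Alb, the most abundant, was at 71216 against 63441 CPM (adjusted p = 0.313). Of 6 cholangiocyte markers 0 passed, with 1 at an unadjusted p under 0.05 and 0 by DESeq2. The summed marker levels of the combined exposure overlapped those of HFD control for Kupffer cells (345 to 493 against 296 to 654 CPM), monocytes and recruited macrophages (85.4 to 147 against 67.6 to 125 CPM) and hepatocytes (96208 to 126881 against 103582 to 108906 CPM). The part of cell makeup in the class I changes was not tested. GC-corrected, 1 of these markers passed, Ttr at -0.94 (adjusted p = 0.0243).

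The class II members, and H2-K1, H2-D1 and Tap1, varied together from mouse to mouse. Over the 20 mice, 36 pairs of log2 CPM values were correlated, with permutation p-values adjusted over the 36. H2-Aa and H2-Eb1 had r = 0.966 (rho = 0.953, both permutation p = 1e-05, the smallest that 100000 permutations can give, adjusted p = 5.14e-05 and 7.20e-05), r = 0.941 without the 2 mice farthest from the median of H2-Aa, and r from 0.948 to 0.994 within the 4 groups of 5 mice. H2-Eb1 and Cd74 had r = 0.970 (rho = 0.941, 0.942 without 2 mice, 0.950 to 0.990 within groups). Over the 6 pairs of H2-Aa, H2-Ab1, H2-Eb1 and Cd74, r ran from 0.919 to 0.970. Ciita followed them with r from 0.689 for H2-Ab1 (rho = 0.698, permutation p = 4.00e-04 and 9.40e-04, adjusted p = 0.00111 and 0.00260) to 0.790 for H2-Eb1 (rho = 0.814, adjusted p = 1.80e-04 and 1.44e-04), at 18 to 126 counts a library.

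H2-K1 and H2-D1 had r = 0.957 (rho = 0.934, permutation p = 1e-05 for both, adjusted p = 5.14e-05 and 7.20e-05), 0.928 without 2 mice and 0.778 to 0.980 within groups. Tap1 had r = 0.827 with H2-K1 (rho = 0.750, permutation p = 5.00e-05 and 3.40e-04, adjusted p = 1.80e-04 and 0.00111), 0.693 without 2 mice and 0.525 to 0.934 within groups. B2m, which pairs with the heavy chains in the protein, had r = 0.0224 with H2-K1 (rho = 0.0857, permutation p = 0.924 and 0.719), 0.0218 with H2-D1 and -0.256 with Tap1. GC-corrected, these were 0.728, 0.778 and 0.617, while that of H2-K1 with H2-D1 was 0.921. Between the classes, the highest r was 0.596 for Cd74 with H2-D1 (rho = 0.469, permutation p = 0.00578 and 0.0397, adjusted p = 0.0149 and 0.102), and 0.411 without 2 mice. Both genes of a pair were read from the same libraries, with the same groups and GC slopes.

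**Figure D4:**
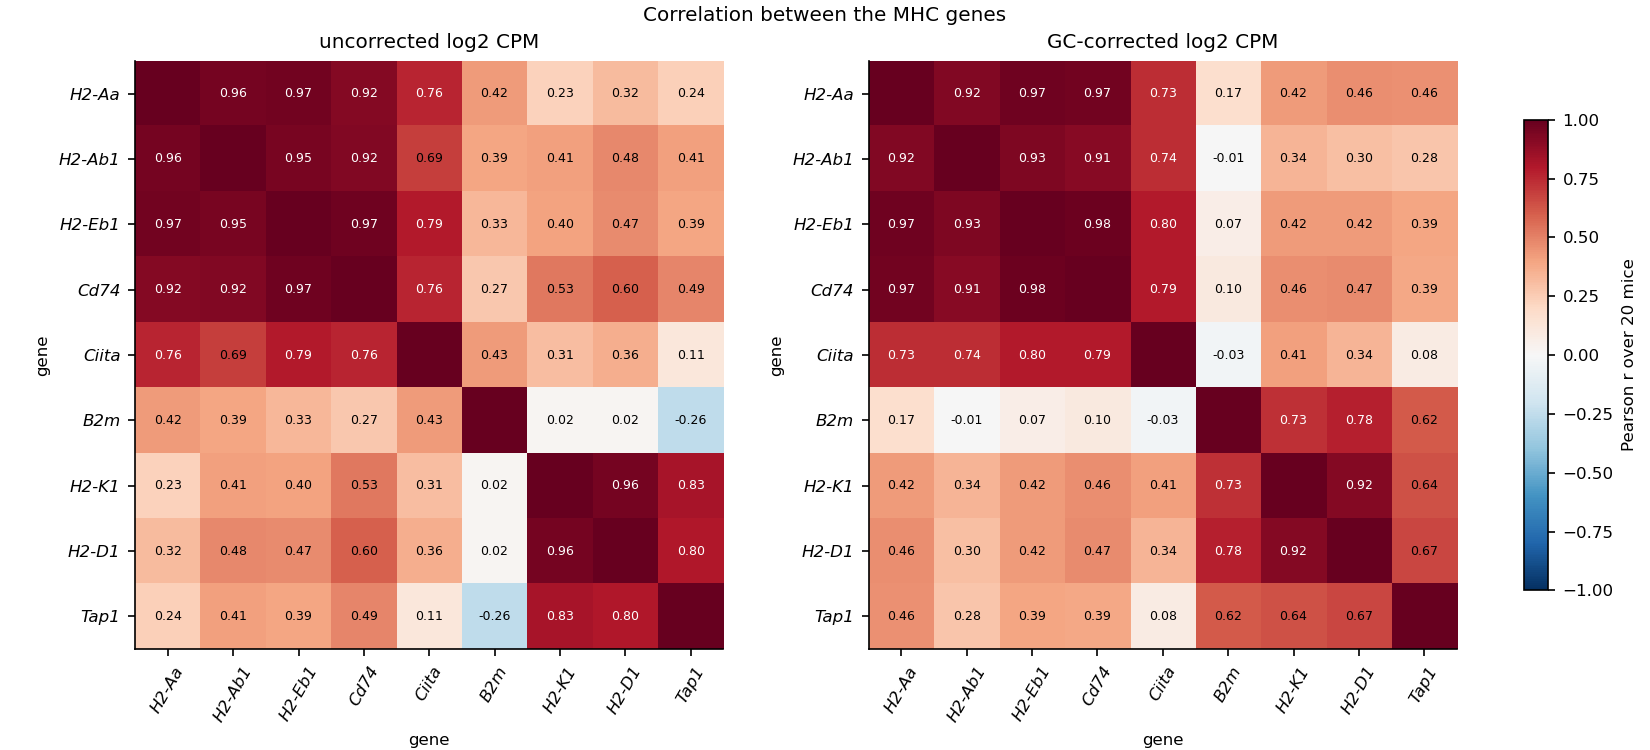
Pearson r of log2 CPM between the 9 genes over 20 mice, uncorrected on the left and GC-corrected on the right, on a colour scale from -1 (blue) to 1 (red). H2-Aa, H2-Ab1, H2-Eb1 and Cd74 form a block of r 0.919 to 0.970, and B2m joins H2-K1, H2-D1 and Tap1 in the GC-corrected panel.

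Against the summed markers of 9 cell types, 18 relations were computed for H2-Aa and H2-K1. H2-Aa had r = 0.841 with monocytes and recruited macrophages (rho = 0.841, permutation p = 2.00e-05 and 1e-05, adjusted p = 1.80e-04 for both), r = 0.832 without 2 mice and 0.738 to 0.979 within groups. That sum was mostly the single gene Lyz2 (mean 83.2 CPM, with Ccr2 next at 4.23 CPM). With dendritic cells H2-Aa had r = 0.815 (rho = 0.832, permutation p = 1e-05 and 2.00e-05, adjusted p = 1.80e-04 for both), 0.813 without 2 mice and 0.256 to 0.971 within groups. With Kupffer cells r was 0.780 (rho = 0.678, permutation p = 1.10e-04 and 0.00128, adjusted p = 6.60e-04 and 0.00768) and 0.620 without 2 mice, with T and NK cells 0.694 (rho = 0.517, adjusted p = 0.00553 and 0.0955, 0.482 without 2 mice), with sinusoidal endothelium 0.572 (rho = 0.402, adjusted p = 0.0321 and 0.223, 0.312 without 2 mice), and with B cells 0.272 (rho = 0.211, permutation p = 0.241 and 0.373, adjusted p = 0.370 and 0.610). With hepatocytes r was -0.0286 (rho = -0.159, permutation p = 0.904 and 0.499). H2-K1 had r between -0.0973 and 0.424 with the 9 lists, and its lowest adjusted permutation p was 0.160.

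Of the 11333 non-member genes of at least 1 CPM, those most like the mean pattern of H2-Aa, H2-Ab1, H2-Eb1 and Cd74 over the 20 mice were led by H2-DMb1, a chain of the class II peptide editor (r = 0.945). Among those that followed were Cd52 (0.922), Gltp (0.904), H2-M3 (0.889), Cxcl16 (0.886), Lgals3 (0.883), Ifi211 (0.868), Phf11b (0.864) and Slfn2 (0.858). After GC correction H2-DMb1 was again the most alike (0.954), and 2 of the 10 most alike before it were among the 10 most alike. For B2m, H2-K1, H2-D1 and Tap1 the most alike gene was Tapbp, the tapasin that links the transporter to the heavy chains (0.937, and 0.395 GC-corrected). Tapbpl (0.889), Psmb8 (0.882), Psmb9 (0.877), H2-T22 (0.872), Manbal (0.860), Ephb4 (0.85), Cyba (0.848), Psmb10 (0.848) and Npc2 (0.844) followed, and 6 of the 10 were among the 10 most alike after GC correction. These correlations are descriptions over mice that share groups and GC slopes. Of the members themselves, B2m had r = -0.0742 with the mean of the other 3 class I members, against 0.889 for H2-K1, 0.868 for H2-D1 and 0.611 for Tap1.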

How the data were processed

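RNA of whole liver was measured in 20 mice, 5 in each of 4 groups taken from the sample titles; for replicate 2 of HFD + PCB 126 the label's parts carry differing numbers and the title was followed. Per the study's methods and the submitters' notes, the authors prepared stranded mRNA libraries, sequenced them over 75 cycles in 2 runs, checked reads with FastQC 0.10.1, aligned them with STAR 2.6 to GRCm38.p6 and counted genes with HTSeq 0.10.0. The deposited values are raw counts per gene, not normalized. Annotation release and strand setting are not given in the sources used here. The library totals, 21836506 to 36854887, limit the precision of rare genes such as Ciita. The p-values of the edgeR tests set a difference between groups against the spread between mice, estimated over the 4 groups.

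Counts were tested here with edgeR 4.0.16 (R 4.3.3), with TMM scaling, a minimum total of 10 counts, the quasi-likelihood test over all 20 libraries with group as the term, and Benjamini-Hochberg adjustment over all genes (threshold 0.05). GENCODE M21 matched all but 26 identifiers. Log2 CPM used a prior count of 2, the GC correction a spline with 6 degrees of freedom, and correlations 100000 permutations (SciPy 1.17.1). The steps were tested on simulated data. The members and lists were chosen with earlier results of these data known. All 9 members are named; from each other list, the 2 most abundant genes and up to 4 past the threshold with the smallest p were eligible, and others named here (such as Psmb8, Psmb9, Psmb10, H2-T23, Nlrc5, Cxcl9, Cxcl10, Nfya and Nfyb beyond that rule) were chosen after their values were seen. Alternatives were DESeq2 1.42.0, other scalings and filters, a GC slope covariate, a replicate block, only the groups compared, and leaving out each mouse. No animal is in more than 1 group, and the labels do not pair mice between groups. Between HFD control and the combined exposure all 5 same-numbered pairs deviated together from their group means (r from 0.148 to 0.765). Over the other 25 same-numbered pairs r ran from -0.154 to 0.275, and 9 were above 0.1. Differently numbered pairs were not compared, so these values do not show that the numbers pair the mice. The replicate block was run as an alternative only. No 2 libraries of a group agreed within sampling noise. Values of 2 genes that the naming rule covers are not reported here.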

Additional observations from a re-analysis of the deposited data

Results flagged for a closer look

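Of 36 sets of 5 mice looked at (9 genes in 4 groups), 4 held a mouse whose gap to its nearest neighbour was over 0.71 of the set's range. In HFD + Aroclor, replicate 2 stood apart for H2-Ab1, at 106 CPM against 27.8 to 49.4 CPM in the other 4 mice, and for B2m, at 2395 CPM against 1930 to 2051 CPM. In HFD control, replicate 4 stood apart for H2-D1, at 473 CPM against 612 to 652 CPM. In HFD + PCB 126, replicate 3 stood apart for Tap1, at 40.9 CPM against 31.3 to 33.3 CPM. Chance alone flags about 5% of such sets.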

How the results depend on the processing

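Of 1218 changes of single members computed under other settings, 1103 kept their direction and their side of the threshold. GC handling changed the most. With HFD control as reference, the combined exposure had 3 members past the threshold, 0 with the GC correction, 0 with the GC slope covariate, 1 with the GC correction and replicate block, 1 at an adjusted p under 0.01, and 1 to 3 when a mouse was left out. Against PCB 126 the 1 became 0, 0 and 0 with the same GC settings, 0 at 0.01, 2 with the replicate block, 2 with DESeq2, and 0 to 2 when a mouse was left out. Against Aroclor the 1 was 1 with the GC correction and replicate block (Tap1, adjusted p = 0.0427) and became 0 with the GC correction, 0 with the slope covariate, 0 with only the groups compared, 0 at 0.01, 3 with DESeq2, and 0 to 1 when a mouse was left out. H2-D1 in the combined exposure was lost without a filter on low counts (adjusted p = 0.0503) and with only the groups compared (0.0578). With the replicate block, in the combined exposure against HFD control, Tap1 (adjusted p = 9.90e-04), H2-K1 (0.0126) and H2-D1 (0.0285) kept their calls, and with the GC correction as well Tap1 did not (0.0694) and Ciita passed (0.0423). The block changed no other call against HFD control, and against PCB 126 H2-D1 passed with it (0.0448). Of the genes most alike, 2 of 10 for class II and 6 of 10 for class I were shared after GC correction, and 5 of 10 for class I with deviations from the group means.

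Reversed signs, on the log2 scale and none past the threshold, were these with the GC correction, the slope covariate and the GC correction with replicate block. With Aroclor, B2m was at -0.15 and -0.15 (first and last setting) and H2-K1 at 0.11, 0.20 and 0.11. With PCB 126, B2m was at -0.072, -0.026 and -0.061 (also -0.031 with upper quartile scaling and -0.012 with the FPKM filter), H2-K1 at 0.020, 0.034 and 0.036, and H2-D1 at 0.078, 0.12 and 0.090. With both, H2-Ab1 was at 0.48, 0.43 and 0.52 (0.012 with the replicate block alone), Cd74 at 0.24, 0.37 and 0.29, and B2m at -0.35, -0.015 and -0.34, while H2-K1 and H2-D1 reversed with the covariate, to 0.10 and 0.13. Against PCB 126, B2m was at -0.28 and -0.28, and with the covariate H2-K1 at 0.067 and H2-D1 at 0.019. Against Aroclor, Ciita was at 0.066, 0.31 and 0.040, and B2m at -0.20, -0.023 and -0.20. In the interaction, B2m was at -0.13 and -0.13, and H2-Ab1 at 0.0043 in the last setting. The cause was not tested. When a mouse was left out, signs reversed within these ranges: H2-K1 (-0.12 to 0.038), H2-D1 (-0.067 to 0.10) and Tap1 (-0.077 to 0.14) with Aroclor, Ciita (-0.12 to 0.32), B2m (-0.029 to 0.058) and H2-D1 (-0.079 to 0.063) with PCB 126, H2-Ab1 (-0.15 to 0.11), H2-Eb1 (-0.066 to 0.23) and Cd74 (-0.28 to 0.047) with both, Ciita (-0.34 to 0.069) against Aroclor, and H2-Aa (-0.37 to 0.22), H2-Ab1 (-0.40 to 0.23), H2-Eb1 (-0.53 to 0.050) and Cd74 (-0.56 to 0.013) in the interaction. Over all genes, the combined exposure called 5089 genes against HFD control, 668 with the GC correction, 335 with the covariate (14 higher, 321 lower), and 933 with the GC correction and replicate block, and PCB 126 called 18, 47 with the GC correction, 676 with the covariate and 310 with DESeq2. Aroclor called 0, 447 with the covariate and 143 with DESeq2. Against PCB 126 and Aroclor the combined exposure called 2589 and 64 genes, 0 and 3 with the GC correction, 0 and 0 with the covariate, and 64 became 1343 with DESeq2.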
